A study of Mus musculus with 82 samples.

Results

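Scart1, Scart2, Blk and Sox13 are 4 genes known as marks of gamma delta T cells that make IL-17. They were found by gene name among the 56941 genes of both deposited tables, as Ensembl genes ENSMUSG00000025461 (Scart1), ENSMUSG00000054672 (Scart2), ENSMUSG00000014453 (Blk) and ENSMUSG00000070643 (Sox13), and all 4 had counts enough for a test in both experiments. The 82 libraries, in 14 groups, come from right ear punches taken from C57BL/6J Rj females, with no genetic change named for any group and no age given. In the time course, ears were taken at day 2, 5 or 8 from sham mice (called vehicle in one label), from mice given 5% imiquimod cream, and from mice given the cream together with IDOR-1117-2520. The start-day groups were sham, 5% imiquimod, and 5% imiquimod with IDOR-1117-2520 begun on day 0, 3 or 5. The cream was put on daily from day 0 to day 7, 8 times in all, and the drug was given in drinking water, per the labels' protocol from a day or more before the first cream, although the labels of the start-day groups name their own start. The labels give a treatment time of 8 days for the sham, imiquimod and day 0 drug groups of that experiment, of 5 days for the drug from day 3 and of 3 days for the drug from day 5. Each group held 6 libraries, except 4 in the day 5 sham group. The drug's name carries a final C in the labels of the start-day groups, and what that letter stands for was not given.

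IL-17-making gamma delta T cells are preset in the thymus, settle in barrier tissues such as the dermis, and answer IL-23 and IL-1 beta with IL-17A, IL-17F and IL-22 without a need for peptide antigen. They carry CCR6, the receptor for the chemokine CCL20, which IDOR-1117-2520 blocks, and they are a main early source of IL-17 in skin treated with imiquimod, an agonist of TLR7. Scart1 and Scart2 are membrane proteins of the scavenger receptor cysteine-rich family, described on the Vγ6 and the Vγ4 subset respectively. Blk is a Src-family kinase best known from B cells that also takes part in the making of these gamma delta T cells, and Sox13 is an HMG-box factor of the SoxD group that marks the gamma delta lineage but is also active in tissues outside the immune system.

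Time course libraries held 13.1 to 35.4 mega-counts (1e6 counts) and start-day libraries 24.1 to 35.5 mega-counts, and the keratinocyte genes Krt5 (5050 to 11700 CPM), Krt14 (3450 to 17800 CPM) and Krt10 (6530 to 35000 CPM) were high in every group. Levels are given in CPM, a gene's counts scaled to the effective size of its library, which can be set side by side between libraries but not between genes of different length. Per library Blk rested on 2 to 124 counts, Scart1 on 14 to 215, Scart2 on 11 to 506 and Sox13 on 95 to 522, so Blk is the least precise of them. Whether each library came from its own mouse is not said in the labels. A p value here thus reflects library-to-library spread, which may be technical. A library of whole skin holds RNA of all its cells, and fewer cells of a type cannot be told apart from less RNA per cell. Libraries are named by the number in their sample titles. Library 51 (drug, day 8) held the highest summed level of the 13 B cell genes listed here, 90.3 CPM. Every other library had 70 CPM or less. Results of Scart1 that rest on library 51 are given with and without it. Libraries 9 and 11 (imiquimod, day 2) shaped the number of genes called between drug and imiquimod at that day, as given with the limits below.

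Imiquimod raised Blk at each day, raised Scart2 from day 5 on, raised Scart1 by the test in the start-day experiment (at day 8 its fold change of 1.01 on the log2 scale had an adjusted p of 0.0606, and the effects of these 2 were not shown to differ, adjusted p = 0.902), and lowered Sox13 by a small amount except at day 8. Calls rest on an adjusted p below 0.05 from edgeR. At day 2, 2 of the 4 members were called (1 higher, 1 lower), where 57.7% of all tested genes were called, 29.2% higher and 28.5% lower. At day 5 it was 3 of 4 (2 higher, 1 lower) against 70.4% of all genes, 34.6% higher and 35.9% lower. At day 8 it was 2 of 4, both higher, against 68.1%, with 34.5% higher and 33.6% lower. In the start-day experiment it was 4 of 4 (3 higher, 1 lower) against 78.1%, with 38.1% higher and 39.9% lower. Most tested genes were called in each of these comparisons, so the members' shares say little by themselves. With the drug, no member rose against imiquimod in any of the 6 comparisons. At day 2 edgeR called 0 of 4 members against 16.5% of all genes, 6.9% higher and 9.61% lower (Blk alone had an unadjusted p under 0.05, at 0.0283, and DESeq2 and limma voom called 0 too). At day 5 it called 1 of 4 lower, against 35.4% of all genes called (18.3% higher, 17.2% lower), and at day 8 it called 1 of 4 lower, against 1.56% (1.22% higher, 0.335% lower). With the drug from day 0, 3 of 4 members fell, against 35.1% of all genes called (18.2% higher, 16.9% lower). From day 3 it was again 3 of 4, against 34.3% (18% higher, 16.4% lower), and from day 5 it was 1 of 4, against 27.7% (15% higher, 12.7% lower). The 3 start-day comparisons share their imiquimod libraries.

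**Figure D1:**
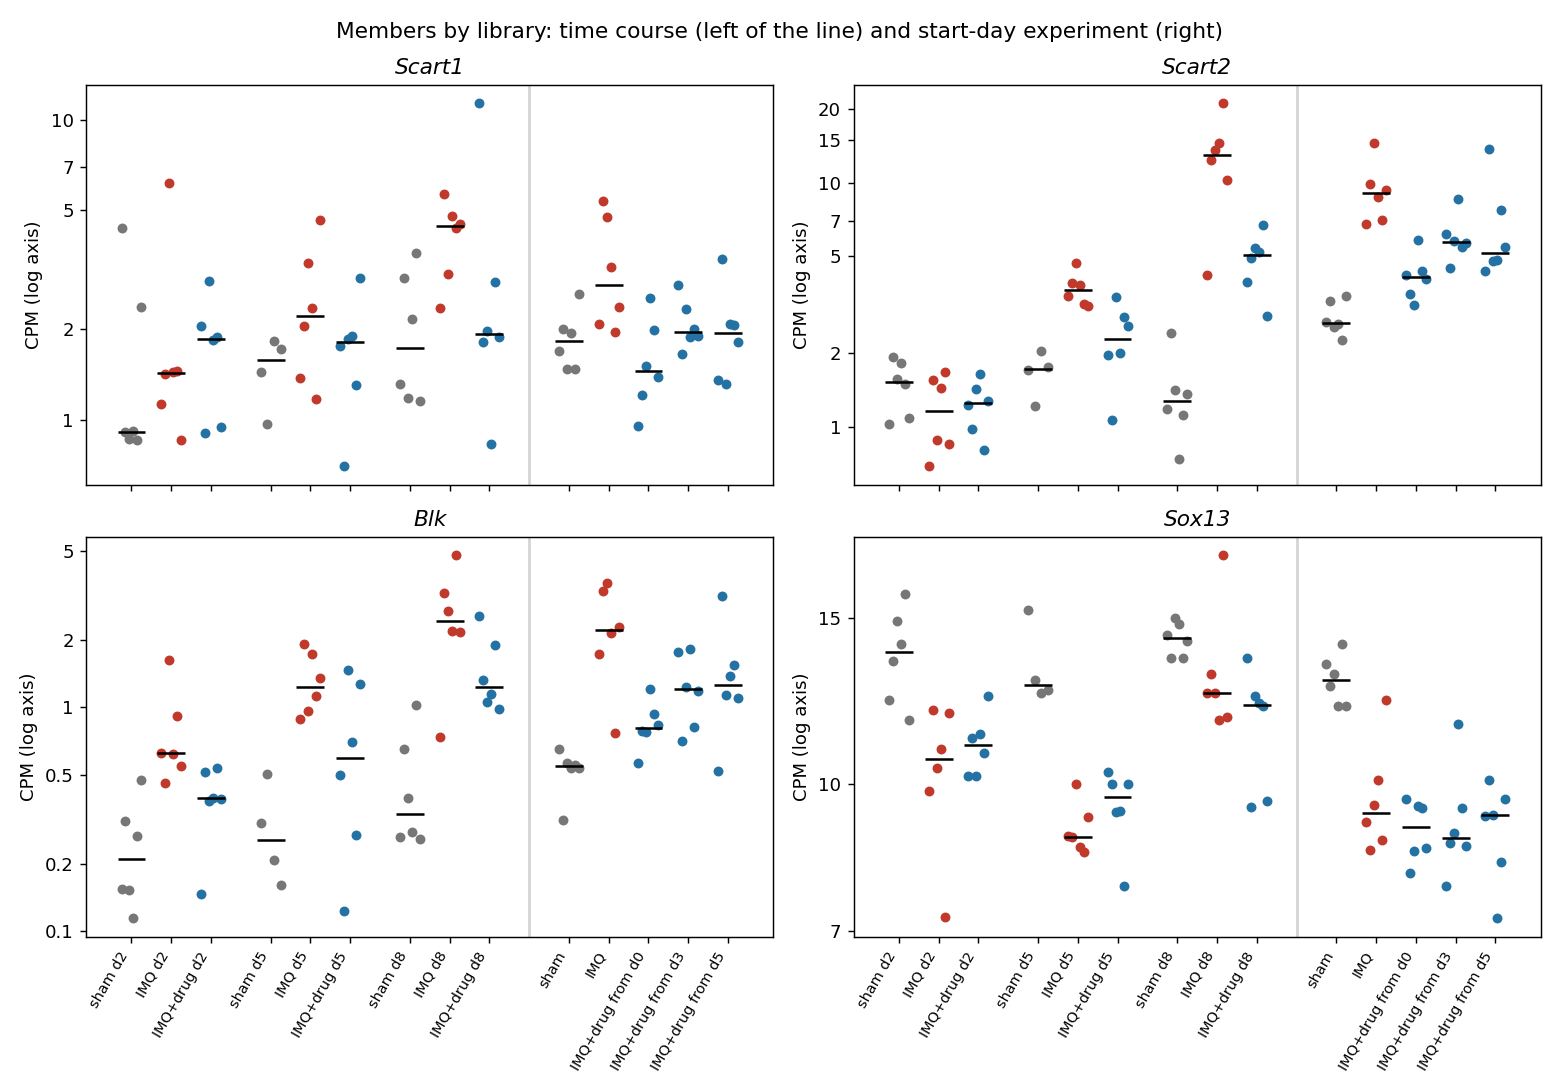
Level of each member in every library, in CPM on a log axis, by group; points are libraries, bars are medians, grey is sham, red is imiquimod (IMQ), blue is imiquimod with the drug. Scart2 climbed from a median of 1.16 CPM at day 2 to 13 CPM at day 8 under imiquimod, while Sox13 stayed within 7.21 and 17.5 CPM in all 82 libraries.

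Scart1 and Scart2 are related receptors that lie near each other on chromosome 7, with 1 protein-coding gene between them in RefSeq. Their promoters are shown so that the letters ahead of both starts can be compared, as the 250 bases before the transcript start on the plus strand in RefSeq (GRCm38.p6, not the build the counts were made on), at chr7:140218017-140218266 for Scart1 and chr7:140247051-140247300 for Scart2 (the first of 3 listed starts). Capitals mark matches to any of 5 short motifs searched on both strands: AGGTCA (half-site of nuclear receptors), AACAAT (SOX), TGANTCA (AP-1), TTCNNNGAA (STAT) and TGTGGT (RUNX).
Scart1: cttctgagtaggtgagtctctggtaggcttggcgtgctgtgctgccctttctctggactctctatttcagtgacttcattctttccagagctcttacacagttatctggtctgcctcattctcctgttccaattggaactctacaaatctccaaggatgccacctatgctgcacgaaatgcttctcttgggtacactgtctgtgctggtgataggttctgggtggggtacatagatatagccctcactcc
Scart2: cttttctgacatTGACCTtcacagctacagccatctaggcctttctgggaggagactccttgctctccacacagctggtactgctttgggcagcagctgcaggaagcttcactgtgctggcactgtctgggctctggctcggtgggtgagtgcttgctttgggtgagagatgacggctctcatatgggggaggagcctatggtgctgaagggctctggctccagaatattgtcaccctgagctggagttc
The Scart2 window held 1 match, TGACCT, which is AGGTCA on the other strand and begins 238 bases before the start. The Scart1 window held none of the 5. AGGTCA occurs in 14% of the 32851 promoter windows of that length in the table, AACAAT in 9.42%, TGANTCA in 6.75%, TTCNNNGAA in 7.02% and TGTGGT in 14%, so a match or its lack in a window is a description of its letters only. The matches found overlap no other. The other 2 Scart2 windows held no match. The Sox13 window (chr1:133424213-133424462, minus strand) held 1 STAT match, TTCGCAGAA, and its GC content of 72.4% stood above 48.8% for Scart1, 56% for Scart2 and a median of 52.4% over all windows. Of the 4 members, 3 had a window in the table.

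Scart2 had the highest fold change of the 4 with imiquimod at day 8, while that of Blk was higher at days 2 and 5 and in the start-day experiment (these differences were not tested). At day 2 it lay between 0.689 and 1.94 CPM in the sham, imiquimod and drug groups alike, with a log2 fold change for imiquimod against sham of −0.35 ± 0.30 (SE, adjusted p = 0.318, 95% interval −0.93 to 0.23). At day 5 the 4 sham libraries held 1.22, 1.71, 1.76 and 2.04 CPM, and the imiquimod libraries ran from 3.13 over a median of 3.64 to 4.68 CPM. The groups did not overlap, and Scart2 was 2.2-fold higher with imiquimod (log2 1.14 ± 0.30, adjusted p = 0.000705). At day 8 sham libraries ran from 0.736 over a median of 1.27 to 2.42 CPM, and imiquimod libraries from 4.18 over 13 to 21.2 CPM. Again no library of one group reached the other, and the difference was 9.16-fold (log2 3.19 ± 0.27, adjusted p = 3.65e-15). The rise went on between days: imiquimod ears held 3.12 times more Scart2 at day 5 than at day 2 (log2 1.64 ± 0.28, adjusted p = 3.21e-06) and 3.43 times more at day 8 than at day 5 (log2 1.78 ± 0.25, adjusted p = 2.26e-06). Between those days 1 of 4 and 2 of 4 members were called, all higher, against 45.9% of all genes (22.6% higher, 23.4% lower) and 11.8% (5.91% higher, 5.88% lower). An F test of whether the effect of imiquimod differed among days gave an adjusted p of 4.84e-09 for Scart2 (2 of 4 members called, 33.4% of all genes called), while among sham days it gave 0.852 (edgeR, DESeq2 and limma voom each called 0 of 4, lowest unadjusted p 0.165 for Blk, 5.52% of all genes called).

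Scart2 rose again in the start-day experiment, but less. Sham libraries ran from 2.27 over 2.66 to 3.45 CPM and imiquimod libraries from 6.76 over 9.06 to 14.6 CPM, without overlap (log2 1.74 ± 0.24, adjusted p = 2.35e-07). A joint fit put the imiquimod effect of day 8 of the time course above that of the start-day experiment by a log2 of 1.41 ± 0.35 (adjusted p = 0.00157). Of the 4 members 1 was called there, higher, against 21.4% of all genes (11.2% higher, 10.3% lower). The sham level in the start-day experiment was also higher than in the day 8 sham group of the time course (medians 2.66 and 1.27 CPM), and the part of that in the difference was not tested.

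In the time course the drug lowered Scart2 at days 5 and 8, where imiquimod had raised it. At day 2, before any rise, drug libraries ran from 0.804 to 1.65 CPM and did not differ from imiquimod beyond the spread (log2 0.04 ± 0.31, adjusted p = 0.944, 95% interval −0.56 to 0.64). At day 5 drug libraries ran from 1.07 over 2.29 to 3.40 CPM, and 5 of 6 lay below the lowest imiquimod library (log2 −0.67 ± 0.26, adjusted p = 0.035). That call is a narrow one: it was lost without imiquimod library 26 or 27 or without drug library 31, 32 or 34, with values of −0.52 to −0.66 and adjusted p of 0.0534 to 0.119. At day 8 drug libraries ran from 2.86 over 5.06 to 6.70 CPM, all below 5 of the 6 imiquimod libraries. The sixth, library 44, held 4.18 CPM and lay among them. Scart2 was 2.62-fold lower with the drug (log2 −1.39 ± 0.24, adjusted p = 0.00249), and the call held without each library in turn (−1.57 to −1.19, adjusted p at most 0.0143). It was 1 of 63 genes called lower at that day, 0.335% of those tested. An F test of the drug effect among days gave an adjusted p of 0.0374 for Scart2 (1 of 4 members called, 7.99% of all genes called), and the call was lost when any 1 of 12 libraries was left out, with adjusted p up to 0.0799 without imiquimod library 48.

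With the drug from day 0, Scart2 ran from 3.17 over 4.13 to 5.81 CPM, below every imiquimod library (2.24-fold lower, log2 −1.16 ± 0.24, adjusted p = 0.000328). From day 3 it ran from 4.46 over 5.72 to 8.57 CPM, with library 22 inside the imiquimod range (log2 −0.65 ± 0.23, adjusted p = 0.0294). From day 5 it ran from 4.37 over 5.15 to 13.8 CPM, with libraries 17 and 14 inside that range (log2 −0.46 ± 0.23, adjusted p = 0.145). The call for day 3 was lost without imiquimod library 9 (−0.48, adjusted p = 0.107) or without drug library 20, 23 or 24 (−0.58 to −0.63, adjusted p 0.0538 to 0.0694), and the drug from day 5 was called without library 14 (−0.79, adjusted p = 0.00165). Levels with the drug still stood above sham: by a log2 of 0.57 ± 0.25 from day 0 (adjusted p = 0.0428, lost when any 1 of 8 libraries was left out, with adjusted p up to 0.119), of 1.09 ± 0.25 from day 3 (adjusted p = 0.000254) and of 1.28 ± 0.25 from day 5 (adjusted p = 3.19e-05). The 3 start days did not differ from one another by an F test (adjusted p = 0.453 for Scart2, unadjusted 0.02). edgeR called 0 of 4 members and 1 gene of all there, 0.00542%. DESeq2, which gave Blk no adjusted p, and limma voom called no member either, and Scart2 alone had an unadjusted p under 0.05.

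Scart1 moved less and varied more. At day 2 sham libraries ran from 0.855 over 0.911 to 4.36 CPM and imiquimod libraries from 0.851 over 1.43 to 6.16 CPM. The groups overlapped throughout, and the sign of the log2 fold change of 0.32 ± 0.50 (adjusted p = 0.609) hung on library 9, the highest, without which it was −0.43. The drug against imiquimod at that day likewise turned from −0.28 to 0.47 without it. At day 5 sham libraries held 0.964, 1.44, 1.72 and 1.83 CPM and imiquimod libraries ran from 1.17 over 2.21 to 4.65 CPM (log2 0.73 ± 0.56, adjusted p = 0.243). At day 8 sham ran from 1.15 over 1.74 to 3.61 CPM and imiquimod from 2.35 over 4.42 to 5.65 CPM, with 4 imiquimod libraries above every sham library. The log2 fold change was 1.01 ± 0.48 with an adjusted p of 0.0606, and it was called without sham library 38 or 41 or imiquimod library 44 (1.12 to 1.24, adjusted p 0.0308 to 0.0468). In the start-day experiment sham ran from 1.47 over 1.82 to 2.62 CPM and imiquimod from 1.96 over 2.80 to 5.35 CPM, a rise of 1.76-fold (log2 0.82 ± 0.25, adjusted p = 0.00392). The effect of imiquimod on Scart1 was not shown to differ among days (F test, adjusted p = 0.723).

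In the time course the drug left no called change in Scart1. Its log2 fold changes against imiquimod were −0.28 ± 0.51 at day 2, −0.51 ± 0.49 at day 5 and −0.26 ± 0.47 at day 8, with intervals that reach from −1.47 to 0.72 across the 3 days. At day 8 the drug libraries ran from 0.831 over 1.92 to 11.4 CPM, and 5 of 6 lay at 2.88 CPM or less. The highest was library 51. Without it the day 8 value was −1.13 with an adjusted p of 0.211. In that library Cd79a stood at 3.71 CPM, Pax5 at 2.23, Igkc at 8.01 and Ms4a1 at 7.58, where the other drug libraries of the day had at most 0.425, 0.537, 0.234 and 4.34, and Cxcr6, a chemokine receptor of T cells, stood at 5.09 against at most 2.59 CPM. Their part in its Scart1 level was not tested. In the start-day experiment Scart1 fell with the drug from every start: to 0.955 to 2.55 CPM from day 0 (2.05-fold, log2 −1.04 ± 0.26, adjusted p = 0.00185), to 1.66 to 2.81 CPM from day 3 (log2 −0.65 ± 0.25, adjusted p = 0.0418) and to 1.31 to 3.43 CPM from day 5 (log2 −0.71 ± 0.25, adjusted p = 0.0328). All 3 ranges overlapped that of imiquimod. The day 0 call held without each library in turn. The day 3 call was lost when any 1 of 7 libraries was left out (imiquimod 8, 9 and 10, drug 20, 22, 23 and 24, adjusted p 0.0572 to 0.157) and the day 5 call when any 1 of 6 was (imiquimod 8 and 9, drug 13, 15, 16 and 18, adjusted p 0.0505 to 0.127). None of the 3 drug groups was called against sham for Scart1 (log2 −0.22, 0.17 and 0.11, adjusted p 0.457, 0.561 and 0.71).

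Blk, the kinase, was raised by imiquimod at every day. At day 2 sham ran from 0.114 over 0.211 to 0.474 CPM and imiquimod from 0.458 over 0.621 to 1.63 CPM, with 5 of 6 imiquimod libraries above every sham library (log2 1.64 ± 0.47, adjusted p = 0.00237). It was thus the one member already called higher at that day, with counts of 2 to 35 per library, and the call was lost when libraries 9 and 11 were both left out (log2 1.13, adjusted p = 0.069). At day 5 the 4 sham libraries held 0.160, 0.208, 0.303 and 0.503 CPM and imiquimod ran from 0.886 over 1.24 to 1.92 CPM, without overlap (4.47-fold, log2 2.16 ± 0.50, adjusted p = 0.000163). At day 8 sham ran from 0.257 over 0.334 to 1.02 CPM and imiquimod from 0.734 over 2.44 to 4.78 CPM, where only library 44 fell within the sham range (5.51-fold, log2 2.46 ± 0.41, adjusted p = 6.29e-07). In the start-day experiment the ranges were 0.312 to 0.652 and 0.770 to 3.58 CPM (4.39-fold, log2 2.13 ± 0.34, adjusted p = 1.21e-06). The effect was not shown to differ among days (F test, adjusted p = 0.579).

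With the drug, Blk lay lower in every comparison, but was called only in the start-day experiment. Its log2 fold changes against imiquimod were −1.02 ± 0.45 at day 2 (adjusted p = 0.114), −0.88 ± 0.40 at day 5 (adjusted p = 0.0792) and −0.82 ± 0.37 at day 8 (adjusted p = 0.294), with each 95% interval below 0 before adjustment. The day 5 value was called without drug library 33 (−1.22, adjusted p = 0.0196) or 36 (−1.11, adjusted p = 0.0318). At day 8 library 51 held the highest Blk of the drug group, 2.55 CPM, and the next library 1.89 CPM. Leaving out single libraries changed neither the direction of the day 8 value nor its lack of a call. From day 0 Blk ran from 0.566 over 0.808 to 1.21 CPM, against 0.770 over 2.21 to 3.58 CPM with imiquimod alone. Imiquimod library 11, at 0.770 CPM, was the only one within the drug range (2.7-fold lower, log2 −1.43 ± 0.33, adjusted p = 0.000853). From day 3 the log2 fold change was −0.88 ± 0.31 (adjusted p = 0.0278, lost without imiquimod library 8 or 9 or drug library 20 or 23, adjusted p 0.0687 to 0.0891). From day 5 it was −0.64 ± 0.31 (adjusted p = 0.127), and it was called without drug library 14, at 3.13 CPM the highest of its group (−1.01, adjusted p = 0.00966), or without imiquimod library 11 (−0.82, adjusted p = 0.0353). Against sham, Blk with the drug from day 0 was not called (log2 0.70 ± 0.37, adjusted p = 0.0841), and from days 3 and 5 it was higher (1.25 ± 0.35 and 1.5 ± 0.35, adjusted p = 0.00192 and 0.000273).

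Blk is also a B cell gene, so markers of B cells are given beside it. Of 13 listed genes, 8 had enough counts in the time course, against 7 in the other experiment. Imiquimod against sham gave 0 higher and 1 lower at day 2, 2 higher at day 5, 4 higher and 2 lower at day 8, and 4 higher in the start-day experiment. The list's median log2 fold change was −0.23, 0.16, 0.96 and 1.07, where the median of all genes was −0.03, −0.04, −0.01 and −0.02. Beside the counts of this and later lists, 57.7% to 78.1% of all tested genes were called with imiquimod against sham. With the drug against imiquimod 1.56% to 35.4% were called. Cd22 rose by a log2 of 2.21 ± 0.60 at day 8 and 3.48 ± 0.26 in the start-day experiment, and Cd79b, a part of the B cell receptor that some other leukocytes transcribe, by 2.18 ± 0.44 and 2.44 ± 0.26. The defining genes were scarce: in the imiquimod groups of day 8 and of the start-day experiment Cd79a had 0 to 9 counts per library, Pax5 0 to 11 and Igkc 0 to 26. The summed level of the list ran from 26.9 to 52.3 CPM in sham and from 23.4 to 54 CPM in imiquimod libraries. Those ranges pool all days and both experiments. In the start-day experiment alone sham ran from 26.9 to 35.3 CPM and imiquimod from 43.8 to 54 CPM, without overlap. At day 8 sham ran from 33.8 to 52.3 CPM and imiquimod from 41.2 to 50.3 CPM. With the drug from day 0, Cd22 and Cd79b fell (−0.94 ± 0.21 and −0.77 ± 0.23) and Blnk rose (0.30 ± 0.07). The part of B cells in the Blk values was not tested. Plasmacytoid dendritic cell genes, of which 5 could be tested, gave 2 to 3 higher and 1 to 2 lower against sham in the 4 imiquimod comparisons. Bst2 and Irf8 were higher and Cox6a2 lower in each, and Ccr9 was higher in all but day 2. Siglech was lower at day 2 (−3.72 ± 0.77) and in the start-day experiment (−0.78 ± 0.36), and not called at days 5 and 8. Among the other Src-family kinases Fgr (log2 1.87 ± 0.28) and Lyn (1.83 ± 0.20), kinases of myeloid cells, rose with imiquimod at day 8, as did Src and Yes1, 5 of 7 in all, and Lck, the kinase of T cells, stayed at 0.08 ± 0.17.

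Sox13, the transcription factor, went the other way and by little. At day 2 sham ran from 11.7 over 13.8 to 15.9 CPM and imiquimod from 7.23 over 10.6 to 12 CPM (1.32-fold lower, log2 −0.40 ± 0.10, adjusted p = 0.000422). At day 5 the 4 sham libraries held 12.5, 12.6, 12.9 and 15.3 CPM and imiquimod ran from 8.48 over 8.80 to 10 CPM, without overlap (log2 −0.57 ± 0.11, adjusted p = 6.25e-06). At day 8 it was no longer called lower, with 13.6 to 15 CPM in sham and 11.7 to 17.5 CPM with imiquimod. Every imiquimod library of that day but library 48, at 17.5 CPM, lay below the sham range, and the log2 fold change of −0.12 ± 0.10 (adjusted p = 0.278) became −0.21 without it (adjusted p = 0.0418). Sox13 rose from day 5 to day 8 under imiquimod (log2 0.55 ± 0.10, adjusted p = 0.000163). The F test of the effect among days gave an adjusted p of 0.0324, and this passed 0.05 without sham library 19 (0.0831), sham library 41 (0.0504) or imiquimod library 48 (0.102). In the start-day experiment sham ran from 12.1 to 14.1 and imiquimod from 8.51 to 12.3 CPM (log2 −0.41 ± 0.09, adjusted p = 9.91e-05).

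The drug did not move Sox13 beyond the spread in any of the 6 comparisons with imiquimod. The log2 fold changes were 0.08, 0.08 and −0.18 at days 2, 5 and 8 and −0.11, −0.08 and −0.11 from days 0, 3 and 5, with adjusted p of 0.352 to 0.63. Across the 6 comparisons the 95% intervals reached from −0.38 to 0.27 on the log2 scale. Against sham, Sox13 stayed lower in all 6 drug groups (log2 −0.32, −0.49 and −0.30 at days 2, 5 and 8, and −0.53, −0.49 and −0.52 from days 0, 3 and 5, with adjusted p of at most 0.00573). Over all members, the drug groups gave these calls against sham. At day 2, 1 of 4 was lower (44.2% of all genes called, 24.2% higher and 20.1% lower). At day 5, 1 was higher and 1 lower (60.3%, with 31.1% higher and 29.3% lower). The higher one was Blk (log2 1.28, adjusted p = 0.0269), a call lost with no filter (adjusted p = 0.0503), by voom (0.94, 0.173), from the compared groups alone (0.0863) and without sham library 21 or 22 or drug library 33 or 36 (0.93 to 1.16, adjusted p 0.0743 to 0.12). At day 8, 2 were higher and 1 lower (66.8%, with 34.2% higher and 32.6% lower). Sox13 was the lower member each time. From day 0, 1 was higher and 1 lower (74.3%, with 36.7% higher and 37.6% lower), from day 3, 2 were higher and 1 lower (74.7%, with 36.6% higher and 38.1% lower), and from day 5 the same numbers held (75.5%, with 37.4% higher and 38.1% lower).

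Cells outside the immune system express SoxD genes too, and marker lists of cartilage and Schwann cells fell with imiquimod, also at day 8. Sox13 was not called at that day with all libraries, and was called lower without library 48 (−0.21, edgeR adjusted p = 0.0418). The other SoxD genes, Sox5 and Sox6, factors of cartilage and other tissues, both fell with imiquimod at each day and in the start-day experiment, by a log2 of 0.77 ± 0.12 to 2.09 ± 0.11 for Sox5 and of 0.79 ± 0.11 to 1.60 ± 0.09 for Sox6, with values beyond those of Sox13 (the difference was not tested). With the drug from day 0 both rose (0.59 ± 0.11 and 0.51 ± 0.09). Cartilage genes gave 6 or 7 of 8 lower in the 4 imiquimod comparisons, and their summed level was 763 to 1010 CPM in sham against 241 to 515 CPM with imiquimod and 303 to 666 CPM with the drug. Schwann cell genes, of which all 6 fell in each of the 4, had 757 to 1240 CPM in sham and 230 to 595 CPM with imiquimod. Against imiquimod the drug raised 5 of 8 cartilage genes at day 5 and 6, 7 and 6 of 8 from days 0, 3 and 5, and 6 of 6 Schwann cell genes at day 5 and 6, 6 and 4 of 6 from those days, in comparisons where Sox13 was not called. Vessel genes stood at 150 to 202 CPM in sham and 166 to 247 CPM with imiquimod (1 of 8 higher and 1 lower at day 8, 1 higher and 2 lower at day 2, 3 higher and 1 lower at day 5, and 1 higher and 5 lower in the start-day experiment), and basal keratinocyte genes at 12700 to 19200 and 20800 to 31800 CPM (4 of 7 higher and 3 of 7 lower at day 8). The part of these tissues in the Sox13 values was not tested.

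**Figure D2:**
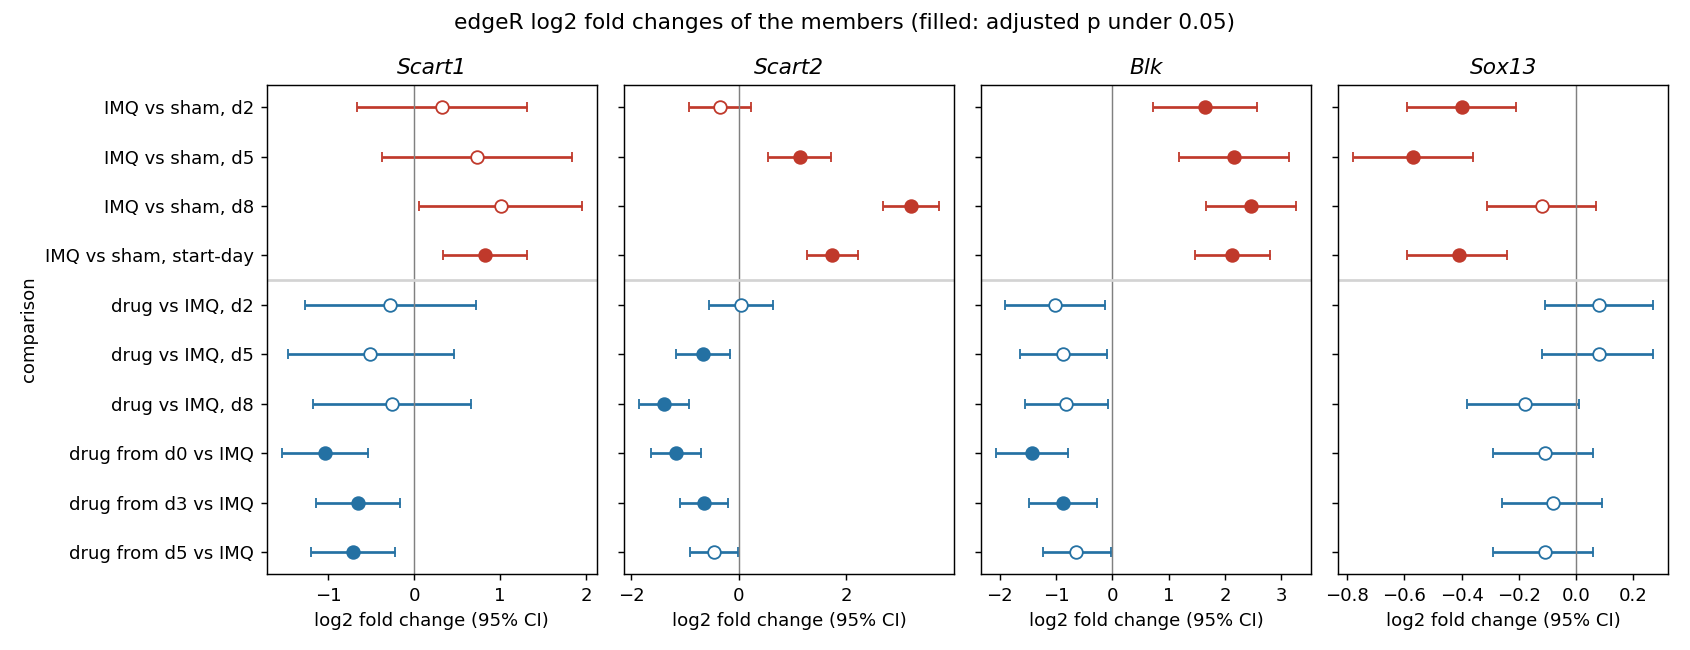
edgeR log2 fold change of each member with its 95% confidence interval in the 10 comparisons with imiquimod; red is imiquimod against sham, blue is drug against imiquimod, filled points have an adjusted p under 0.05, and each panel has its own scale. Scart2 at day 8 (3.19) and Blk (1.64 to 2.46) lie to the right, all Sox13 drug values lie within −0.18 and 0.08.

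The order of the groups by median level shows the same for each gene. In the time course the top group was imiquimod at day 8 for Scart1 (4.42 CPM), Scart2 (13 CPM) and Blk (2.44 CPM), and sham at day 8 for Sox13 (14.3 CPM). For Scart2 the drug group of day 8 (5.06 CPM) and the imiquimod group of day 5 (3.64 CPM) came next. The lowest groups were sham at day 2 for Scart1 (0.911 CPM) and Blk (0.211 CPM), imiquimod at day 2 for Scart2 (1.16 CPM) and imiquimod at day 5 for Sox13 (8.80 CPM). For the start-day groups, imiquimod stood first and sham last for Scart2 and Blk, while for Scart1 the drug from day 0 stood last (1.45 CPM) and for Sox13 sham stood first (12.9 CPM). Every pair of neighbours in these orders overlapped.

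The genes found in all T cells were split, with the Cd3 genes lower and others higher. Cd3e, a chain of the T cell receptor complex, fell with imiquimod by a log2 of 0.69 ± 0.15 at day 2, 1.88 ± 0.17 at day 5, 1.80 ± 0.16 at day 8 and 1.62 ± 0.12 in the start-day experiment. In CPM it ran from 9.57 to 14.5 in the sham libraries and from 2.01 to 5.42 in the imiquimod libraries of days 5 and 8 and of the start-day experiment, without overlap. Cd3g fell with it (by 0.45 to 1.98), and Cd3d, called at 3 of the 4, was not called at day 8 (−0.28 ± 0.24). Of 12 genes found in all T cells, 3 rose and 4 fell at day 8 (median log2 fold change −0.15, −0.01 over all genes), and 3 rose and 6 fell in the start-day experiment. The receptors Cd6 (3.77 ± 0.50 and 4.12 ± 0.29) and Cd5 (1.31 ± 0.12 and 1.4 ± 0.11) and the adhesion molecule Cd2 (0.44 ± 0.18 and 0.79 ± 0.17) were the 3 that rose. The drug raised Cd3e at day 5 (0.67 ± 0.16, adjusted p = 9e-04) and did not change it beyond the spread from days 0, 3 or 5 (0.02 to 0.11).

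Each member was therefore also set against the mean log2 CPM of Cd3d, Cd3e and Cd3g in the same library, and groups were compared by exact two-sided permutation of the libraries, with adjustment over the 40 tests made. The smallest p that 6 libraries against 6 allow is 0.00216, and 6 against 4 allow 0.00476. Relative to Cd3 all 4 members were higher with imiquimod at day 5, at day 8 and in the start-day experiment. The difference of mean log2 values for Scart2 was 2.81, 4.23 and 3.10, for Blk 3.60, 3.40 and 3.30, for Scart1 2.30, 2.22 and 2.13, and for Sox13 1.15, 1.05 and 1, with adjusted exact p of 0.0112 at day 5 and 0.00787 at the other 2. The CPM of Sox13 itself was lower or not changed beyond the spread in those 3 comparisons, and that of Cd3e was lower in each. A gene of unchanged CPM also comes out higher on a base that fell, so these p values do not show a rise of the member itself. How many of all genes would do so was not counted. Other genes of all T cells fell, rose or, as Lck (0.10 ± 0.19, 0.08 ± 0.17 and 0.18 ± 0.15), were not called, and were not tried as a base. At day 2 only Blk stood apart (1.96, adjusted exact p = 0.00787). With the drug, relative to Cd3, Scart2 was lower at day 5 (−1.27, adjusted exact p = 0.0112), at day 8 (−1.33, 0.0216), from day 0 (−1.01, 0.00787) and from day 3 (−0.57, 0.0216), and not by the test from day 5 (−0.54, adjusted exact p = 0.0566). Blk was lower at day 2 (−0.98, adjusted exact p = 0.0192), at day 5 (−1.61, 0.0339) and from day 0 (−1.14, 0.00787). Scart1 was lower at day 5 (−1, adjusted exact p = 0.0469), from day 0 (−0.86, 0.0112) and from day 5 (−0.67, 0.0247), and Sox13 at day 5 (−0.48, adjusted exact p = 0.0275). Against imiquimod at day 5, edgeR gave log2 fold changes of 0.08 for Sox13, and of 0.55, 0.67 and 0.52 for Cd3d, Cd3e and Cd3g. Of these edgeR called Cd3e and Cd3g, and it called neither Scart1 nor Blk. Relative to Cd3, the day 5 calls of Scart1 and Blk were each lost when any 1 of 8 libraries was left out. The adjusted exact p then reached up to 0.0897. That of Sox13 was lost without imiquimod library 28 or drug library 35. At day 8 Scart1 was called without drug library 51 (−1.10, adjusted exact p = 0.0325) and Blk without imiquimod library 44 (−1.04, 0.00666). The base mattered for some calls. With Cd3e alone as the base, Sox13 at day 8 went from −0.25, not called, to −0.70 (adjusted exact p = 0.00577). Blk was then called at day 8 (−1.19, adjusted exact p = 0.0301) and from day 3 (−0.87, 0.0481), and Scart1 from day 3 (−0.64, 0.0381), while Scart1 at day 5 lost its call (−1.11, 0.0627).

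**Figure D3:**
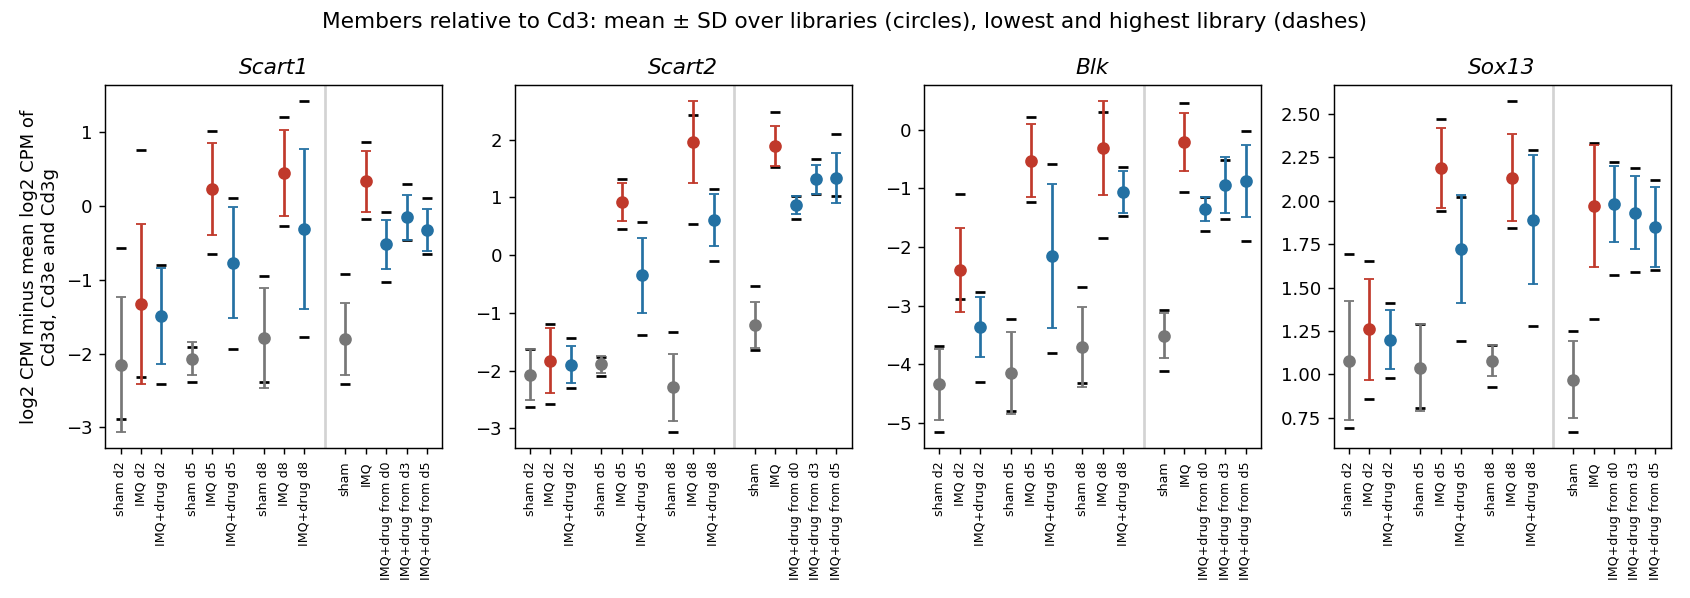
Each member's log2 CPM minus the mean log2 CPM of Cd3d, Cd3e and Cd3g, by group; circles and bars are the mean ± SD over libraries, dashes the lowest and highest library, with the time course left of the line, and each panel has its own scale. Scart2 in imiquimod ears climbed from a mean of −1.83 at day 2 to 0.92 at day 5 and 1.95 at day 8, and sham ears stayed between −2.29 and −1.21.

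Other genes of IL-17-making gamma delta T cells split into those that moved with Scart2 and Blk and those that moved against them. Of 17 listed genes 15 could be tested. With imiquimod 9 rose and 5 fell at day 8 (median log2 fold change 0.65), 8 rose and 4 fell at day 5 (0.80), 4 rose and 4 fell at day 2 (0.16), and 9 rose and 5 fell in the start-day experiment (0.40), where medians of all genes lay between −0.04 and −0.01. Those 4 medians were the same with genes of 3 or fewer sham counts set to their lower bound. At days 5 and 8 and in the start-day experiment the risen genes were cytokines and surface receptors. At day 2 the factor Etv5 was among the risen (0.16 ± 0.07) and the receptor chain Il18r1 among the fallen (−0.62 ± 0.17). At day 8 the T cell co-stimulator Icos rose by a log2 of 4.13 ± 0.35, the chemokine receptor Ccr2, also of monocytes, by 3.20 ± 0.33, the IL-23 receptor chain Il23r by 3.42 ± 0.70 and Ccr6, the target of the drug, by 1.37 ± 0.39. Il17a was all but absent from sham ears, with 0 to 3 counts per library, and reached 4 to 39 counts per library in imiquimod ears of day 5 and 5 to 26 at day 8. At day 5, with 0 counts in the sham group, its level was at least 29-fold higher with imiquimod, taking 3 counts over the group as the floor. Il17f rose from a median of 0.174 to 5.30 CPM at day 8. The genes that fell at days 5 and 8 and in the start-day experiment encode transcription factors. Among them Zbtb16 fell by 1.72 ± 0.17 at day 8, Maf by 0.65 ± 0.10, Etv5 by 0.37 ± 0.07 and Sox4 by 0.33 ± 0.13.

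With the drug, the called genes of this list were mostly cytokines and receptors that fell and factors that rose. Their number differed between comparisons, and so did the share of all genes called. Il23r was called in none of the 6, Il17a was called lower in 3, Ccr6 in 3 and Il7r in 2. At day 8 edgeR called 0 of 15 list genes against imiquimod (median −0.16), and 1.56% of all genes. Of the list, 4 had an unadjusted p under 0.05 (Icos, Il17a, Il17f and Maf). The lowest fitted values of the list were −1.68 ± 0.61 for Il17a and −1.26 ± 0.44 for Il17f. At day 5 it called 4 higher and 7 lower (median −0.56), among them Icos (−1.61 ± 0.31), Il17f (−1.61 ± 0.43) and Ccr2 (−1.11 ± 0.29). At day 2 it called 1 higher and 2 lower. Of all genes 35.4% were called at day 5 and 16.5% at day 2. From day 0, 9 genes fell and 3 rose (median −0.65), with Il17a at −1.39 ± 0.39, Ccr6 at −1.19 ± 0.25, Il17f at −1.18 ± 0.27, Il22 at −1.11 ± 0.27 and Icos at −1.10 ± 0.17. Zbtb16 (0.74 ± 0.11) and Maf (0.38 ± 0.09) were among those that rose. From day 3, 9 fell and 4 rose, and from day 5, 7 fell and 3 rose (medians −0.60 and −0.41). The share of all genes called was 35.1%, 34.3% and 27.7% from days 0, 3 and 5.

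**Figure D4:**
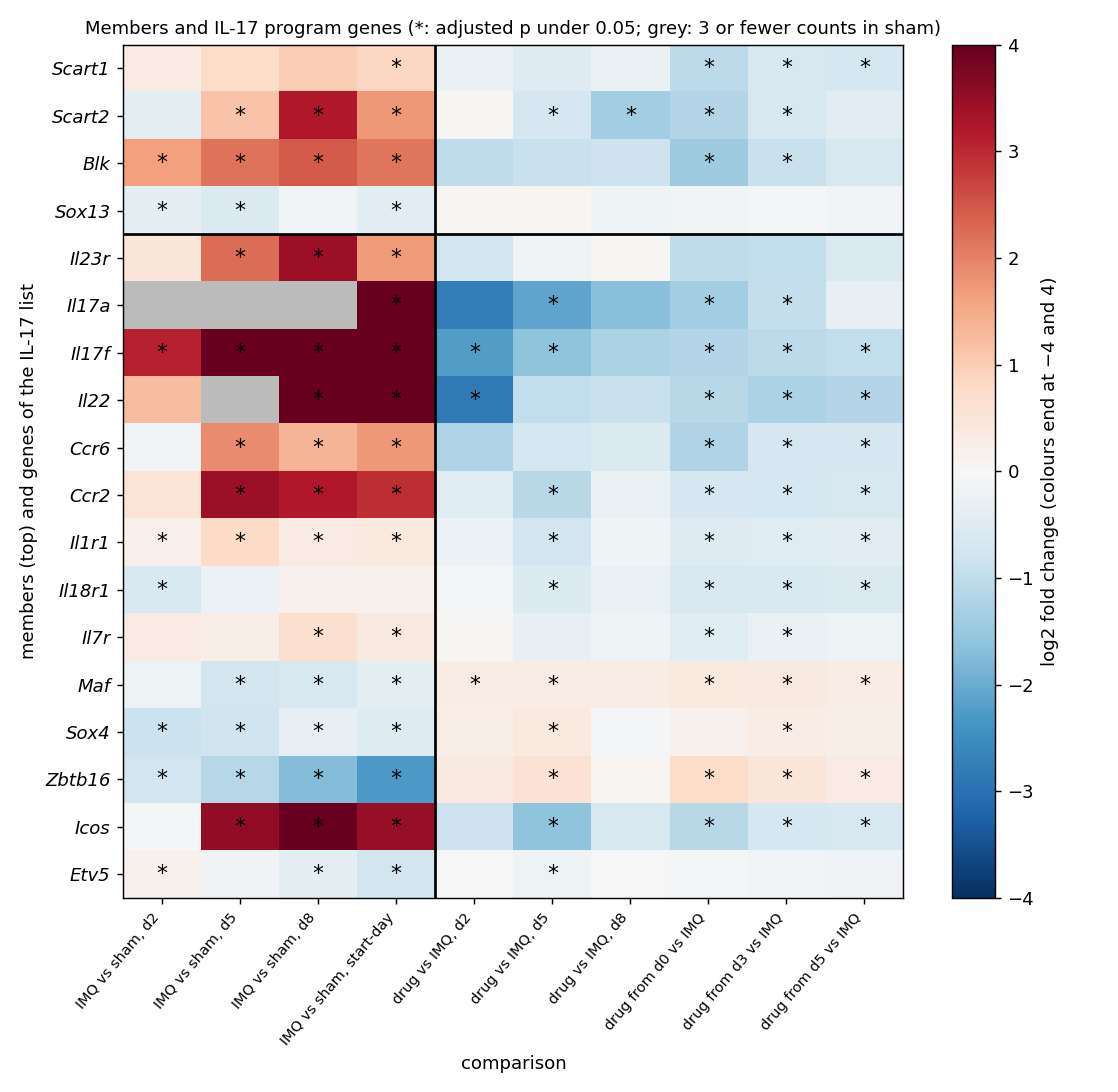
Log2 fold changes of the 4 members (top) and of 14 of the tested genes of IL-17-making gamma delta T cells (below) in the 10 comparisons; red is higher, blue is lower, colours end at −4 and 4, stars mark an adjusted p under 0.05, and grey cells had 3 or fewer counts in the whole sham group. Scart2 and Blk are red at day 8 (3.19 and 2.46) and Zbtb16 is blue (−1.72), and from day 0 of the drug Scart1, Scart2 and Blk are blue (−1.04, −1.16 and −1.43).

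The gamma delta receptor genes themselves fell. Of 6 tested genes (of 10 listed) 3 fell at day 2, 6 at day 5, 5 at day 8 and 6 in the start-day experiment. Trdc, the constant part of the delta chain, fell by a log2 of 1.58 ± 0.24 at day 8 and of 1.72 ± 0.18 in the start-day experiment. Trgv5, the variable segment of epidermal gamma delta T cells, fell from 0.690 to 2.05 CPM in sham to 0 to 0.143 CPM at day 8, and was called higher with the drug at day 8 (0.0469 to 0.624 CPM, 1 to 12 counts per library). Trgv4 and Trgv6, the segments of the IL-17-making cells, had too few counts to be tested. The drug lowered Trdc further at day 5 (−0.74 ± 0.24), where Trgv5 (1.45 ± 0.46) and Trgc1 (0.57 ± 0.20) rose, and from day 0 (−0.59 ± 0.20), day 3 (−0.64 ± 0.20) and day 5 (−0.51 ± 0.20). Of the genes of alpha beta T cells Cd4 was the 1 called at day 2, lower (−0.77 ± 0.25), 2 of 5 tested rose at day 5, and 4 of 5 rose at day 8, among them Foxp3 (3.05 ± 0.43), Cd4 (1.94 ± 0.21) and Trac (1.71 ± 0.33), and 5 of 6 in the start-day experiment. With the drug from day 0, Foxp3 (−1.19 ± 0.21), Trac (−0.76 ± 0.21) and Trbc2 (−0.51 ± 0.09) fell. Both kinds of T cell thus moved beside the members, and their part in the members' values was not tested. Among the other scavenger receptor cysteine-rich genes all but Ssc5d rose with imiquimod at day 8: Marco (3.58 ± 0.27) and Cd163 (1.08 ± 0.19) of macrophages, and Cd6 (3.77 ± 0.50) and Cd5 (1.31 ± 0.12) of T cells, 4 of 5 tested.

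The genes whose levels were most like each member's were sought among 13668 genes by the lower of Pearson's r over the 52 and over the 30 libraries. These r describe libraries that share the same groups, so any gene that moves with imiquimod gains by it. Scart2 was most like Laptm5 (0.85 and 0.85 in the 2 experiments), Sirpa (0.84 and 0.88), Filip1l (0.84 and 0.84), P2rx4 (0.83 and 0.84) and Limd2 (0.83 and 0.88). Blk was most like Il2rg (0.82 and 0.84), Cpxm1 (0.82 and 0.81), Sting1 (0.80 and 0.81), Ikzf3 (0.80 and 0.83) and Itgal (0.80 and 0.86). Scart1 had looser company in Cxcr6 (0.61 and 0.71), Ltb (0.60 and 0.64), Spn (0.59 and 0.59), Zeb2 (0.55 and 0.70) and Cd2 (0.55 and 0.60). Sox13 was most like Mylk (0.81 and 0.82), Nckap5l (0.79 and 0.82), Lbh (0.79 and 0.78), Mfap4 (0.79 and 0.77) and St6gal1 (0.77 and 0.78). No gene stood in 2 of these lists. By group means in place of libraries, 3 of the 5 stayed for Scart1, 1 for Sox13 and 0 for Scart2 and Blk, so for the last pair the named genes depend on that choice.

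The effect of the drug at day 8 of the time course and from day 0 of the start-day experiment was not shown to differ for any member in the joint fit. The differences were 0.78 ± 0.58 for Scart1, −0.23 ± 0.33 for Scart2, 0.61 ± 0.50 for Blk and −0.07 ± 0.13 for Sox13 on the log2 scale, with adjusted p of 0.534 to 0.842. By edgeR 0 of 4 members were called, the lowest unadjusted p being 0.184, against 0.828% of all genes (0.334% higher, 0.493% lower), and DESeq2 (no adjusted p for Blk) and limma voom called 0 as well. Without library 51 the Scart1 difference was −0.09. The 95% intervals, such as −0.36 to 1.91 for Scart1, include differences of either sign.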

How the data were processed

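The authors deposited 1 table of estimated counts per gene for each of the 2 experiments. The table names give salmon as the source, and the submitters' processing notes give the build GRCm39. Its version, the annotation and the strand setting are not stated in labels or headers, so reads of overlapping or antisense genes cannot be told apart. All 82 columns were matched to samples by title. Estimated counts were rounded to whole numbers.

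Each table was fitted apart in edgeR 4.0.16 (R 4.3.3): filterByExpr on group, TMM scaling, robust quasi-likelihood tests with all groups in 1 fit, and Benjamini-Hochberg adjustment over all 18780 or 18434 tested genes. The joint fit of both tables tested 19455 genes. Standard errors were worked out from these fits, as the absolute log2 fold change over the square root of the F statistic. The 95% intervals use a normal quantile, so they are approximate and narrower than a t quantile would give. Log2 CPM used a prior count of 2. No pair of libraries in a group looked like a copy (lowest chi-square per gene 4.13 over 201 pairs). Simulated counts with known fold changes were used to check the edgeR fit.

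The members and gene lists were chosen with earlier results of these data known. Genes named are the members, up to 4 per list by smallest adjusted p in a comparison, genes of the IL-17, gamma delta receptor and B cell lists that show their range, and the 5 most alike. Src, Yes1, Lck and the Cd3 genes were named outside this rule, after their values were seen. Alternatives were DESeq2 1.42.0, RLE scaling, 2 other filters, limma 3.58.1 voom with sample weights, fits limited to the groups compared, a joint fit, and libraries left out. Promoters came from a RefSeq table (GRCm38.p6). Figures were drawn with matplotlib 3.10.9. Some genes of the lists entered the counts and medians but are not reported here by name.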

Additional observations from a re-analysis of the deposited data

Results flagged for a closer look

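Among 56 sets of a member and a group, 7 held a library set apart from the rest of its group by more than Dixon's 95% limit. Chance alone sets apart about 1 in 20 sets, 5%. For Scart1 these were imiquimod day 2 library 9 at 6.16 CPM (the next had 1.45), drug day 8 library 51 at 11.4 CPM (next 2.88) and library 14 of the drug from day 5 at 3.43 CPM (next 2.08). For Scart2 it was the same library 14, at 13.8 CPM (next 7.76). For Blk it was sham library 2 of the start-day experiment, low at 0.312 CPM (next 0.537). For Sox13 these were day 5 sham library 19 at 15.3 CPM (next 12.9) and imiquimod day 8 library 48 at 17.5 CPM (next 13.1).

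The effect of imiquimod differed among days for Scart2 (F test in edgeR, adjusted p = 4.84e-09) and for Sox13 (adjusted p = 0.0324). The effect of the drug differed among days for Scart2 (adjusted p = 0.0374). The effect of imiquimod on Scart2 at day 8 of the time course was larger than in the start-day experiment (edgeR, adjusted p = 0.00157).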

How the results depend on the processing

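For the 4 members in the comparisons of imiquimod with sham and of drug with imiquimod, of 286 recomputed log2 fold changes 262 kept their direction and side of the threshold, 16 lost the call, 5 gained it and 3 turned sign; of 472 with 1 library left out these were 430, 26, 9 and 7. Log2 fold changes are given with adjusted p. Without libraries 9 and 11, imiquimod day 2 gave −0.47 (0.507) for Scart1 and 1.13 (0.069) for Blk, and drug day 2 gave 0.52 (0.714) for Scart1 and −0.02 (0.949) for Sox13. For Scart1, imiquimod day 8 was called by voom (1.23, 0.00118), by the compared groups alone (0.99, 0.00672) and jointly (0.98, 0.0338). In the joint fit Scart1 lost the call for start-day imiquimod (0.83, 0.0597), drug from day 0 (−1.03, 0.0526), day 3 (−0.63, 0.257) and day 5 (−0.70, 0.239), and Blk for drug from day 3 (−0.86, 0.0536). With no filter, drug calls were lost for Scart2 at day 5 (−0.67, 0.0825), for Scart1 (−0.65, 0.106), Scart2 (−0.65, 0.0751) and Blk (−0.88, 0.0735) from day 3, and for Scart1 from day 5 (−0.72, 0.0843). Compared groups alone lost Scart1 (−0.66, 0.0529) and Blk (−0.89, 0.0502) from day 3 and Scart1 from day 5 (−0.71, 0.102). Voom lost Scart2 at day 5 (−0.67, 0.0948) and Scart1 from day 3 (−0.55, 0.057), and called Blk at day 5 (−1.30, 0.0109) and Scart2 from day 5 (−0.55, 0.0342). Among days, the Sox13 imiquimod p became 0.0802 with no filter and 0.058 by voom, and the Scart2 drug p 0.0894, 0.233 and, from compared groups alone, 0.0679. The cause of these changes was not tested.

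Leaving out 1 library at a time, log2 fold changes for imiquimod ran from −0.43 to 0.84 for Scart1 at day 2, from 0.88 to 1.24 for Scart1 at day 8 and from −0.21 to −0.08 for Sox13 at day 8. For the drug they ran from −0.49 to 0.47 (Scart1) and −0.07 to 0.15 (Scart2) at day 2, and from −0.82 to −0.52 (Scart2) and −1.22 to −0.65 (Blk) at day 5. From day 3 they ran from −0.76 to −0.47 (Scart1), −0.77 to −0.48 (Scart2) and −1.06 to −0.71 (Blk), and from day 5 from −0.93 to −0.53, −0.79 to −0.28 and −1.01 to −0.46. Scart2 with the drug at day 2 turned to −0.07, −0.03, −0.03, −0.01 and −0.05 without libraries 7, 9, 12, 15 and 16. Against sham, Scart1 with the drug ran from −0.16 to 0.57 at day 2, from −0.14 to 0.98 at day 8 (−0.14 without library 51) and from −0.11 to 0.23 from day 5 (−0.11 without library 14), and Blk at day 5 from 0.93 to 1.66. Scart1 from day 2 to 5 under imiquimod ran from −0.04 to 0.97. Between experiments the drug difference ran from −0.09 to 0.98 for Scart1 and from −0.14 to 0.04 for Sox13. Relative to Cd3, values near 0 turned sign: Scart1 at day 2 (−0.36 to 0.25), Scart2 at day 2 (−0.22 to 0.05), and Sox13 at day 2 (−0.14 to 0.02), from day 0 (−0.12 to 0.09; −0.18 with Cd3e alone) and from day 3 (−0.16 to 0.04).

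Numbers of genes called moved more than 1.5 times in some comparisons. For drug day 2 edgeR called 3100, 7 without libraries 9 and 11, and 0 of 16355 from the compared groups alone, where 4612 had an unadjusted p under 0.05. For drug day 8 it called 293, against 525 by DESeq2, 147 with no filter, 847 by voom and 497 jointly. Between days 5 and 8 of imiquimod it called 2214 (1459 with no filter), and RLE scaling moved the higher share from 50.1% to 37.1%, DESeq2 to 38%. Sham days gave 1036 (620 with no filter, 1844 by voom, 1689 jointly), the drug effect among days 1500 (703 with no filter, 692 from compared groups alone, 2634 jointly), and start days 1 (130 by DESeq2, 2 with RLE, 6 with no filter, 2 with the CPM filter, 3 by voom, 3 jointly, and 0 from compared groups alone, where 1409 had an unadjusted p under 0.05). The drug effect between experiments gave 161 (428 by DESeq2, 47 with no filter, 652 by voom), with 40.4% higher, or 50.8% with RLE. No paired analysis was possible because replicate numbers run through all libraries of an experiment, so compared groups share none.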
